A study of Homo sapiens with 4 samples.

Results

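The genes described here are 9 markers and receptors of monocytes and macrophages, taken by name: MNDA, FCN1, MRC1, MSR1, MARCO, CD163, CLEC7A, CLEC5A and CD4. All 9 have a single Ensembl identifier each among the 41084 in the deposited gene-level files. RNA came from OCI-AML3, a human acute myeloid leukaemia cell line, in 4 libraries. The genotype label was Plex Control in 2 libraries and Plex CEBPB in the other 2, and the sources used here do not explain the word Plex. No drug, dose or time is given for either group, and all libraries come from 1 cell line. Nothing in the labels states that replicates were separate cultures, so p-values measure only the spread between these libraries, which may be technical. The series title places the work in resistance to inhibitors of BCL2 and MDM2. The gene CEBPB codes for C/EBPβ, which regulates transcription in myeloid cells, and Control libraries held 4.72 and 4.47 TPM of it against 536 and 339 TPM in CEBPB libraries. TPM is the share of transcripts in a library, scaled to a fixed total. Deposited estimated counts summed to between 18151225 and 21950575 per library.

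Monocytes and macrophages carry receptors on their surface that bind microbes, altered lipoproteins, dying cells and spent plasma proteins. Scavenger receptors such as MSR1, MARCO and CD163 take up such cargo, and C-type lectin receptors such as CLEC7A and CLEC5A couple binding to kinase signalling through SYK. MNDA and FCN1 are classical monocyte transcripts, MRC1 and CD163 are typical of tissue macrophages, and CD4 stands on human monocytes as well as on helper T cells.

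The 9 genes did not behave as a unit. MNDA, the scavenger receptor MARCO and the lectin receptor CLEC5A rose in the CEBPB libraries, CD4 fell, and MSR1 and CLEC7A did not pass the test. FCN1, MRC1 and CD163 had too few counts to be tested. Values of edgeR's quasi-likelihood test are given below with Benjamini-Hochberg adjusted p-values over all 13698 identifiers tested, called at an adjusted p under 0.05. Of the 6 members tested, 3 were called higher and 1 lower. Over all identifiers tested, 23.7% were called higher and 24.7% lower, 48.5% in all, so a call was common in these libraries. Scaled by library totals, 65.2% of calls were in the higher direction, beside 49% here. Tested against a 1.5-fold change, 3 members were called higher and 0 lower, beside 8.66% and 8.67% of all identifiers. On reads recovered from the files, explained below, 3 members were called higher and 1 lower, beside 30.5% and 30.7%. The median log2 fold change of the 6 tested members was 1.43, beside 0 over all identifiers tested. The 3 members left out by the filter do not enter that median.

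Promoter sequence was at hand for 5 members, MNDA, MARCO, CLEC5A, FCN1 and CD163, in the RefSeq table for GRCh38.p14. The windows of the 3 genes that rose are shown, a choice made after their values were seen. Whether C/EBPβ binds any of them was not tested. Each runs 5′ to 3′ on the strand of its gene, over the 216 bases from 250 to 35 before the RefSeq start. They lie at chr1:158831101-158831316 on the plus strand for MNDA, chr2:118941944-118942159 on the plus strand for MARCO and chr7:141947009-141947224 on the minus strand for CLEC5A. Capitals mark a match to TTNNGNAA or TTGCNNAA, patterns that resemble the C/EBP site, on either strand.
MNDA: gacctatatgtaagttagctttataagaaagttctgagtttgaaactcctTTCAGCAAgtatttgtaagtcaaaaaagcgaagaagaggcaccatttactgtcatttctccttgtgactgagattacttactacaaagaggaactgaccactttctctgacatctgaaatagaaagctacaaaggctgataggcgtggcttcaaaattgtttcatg
MARCO: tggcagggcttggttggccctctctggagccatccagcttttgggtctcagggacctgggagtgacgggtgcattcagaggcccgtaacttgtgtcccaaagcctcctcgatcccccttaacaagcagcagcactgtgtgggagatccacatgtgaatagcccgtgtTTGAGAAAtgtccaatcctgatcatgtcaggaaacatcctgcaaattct
CLEC5A: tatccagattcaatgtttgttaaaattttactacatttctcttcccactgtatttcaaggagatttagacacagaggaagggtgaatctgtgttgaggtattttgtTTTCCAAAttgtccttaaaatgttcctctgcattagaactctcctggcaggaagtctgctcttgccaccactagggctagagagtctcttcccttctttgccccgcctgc

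TTNNGNAA occurred on either strand in all 5 of these windows, and in 30.6% of 35116 RefSeq promoter windows of the same length. In MNDA it lay 200 to 193 bases before the start as TTCAGCAA, in MARCO 83 to 76 bases before it as TTGAGAAA, and in CLEC5A 144 to 137 bases before it as TTTCCAAA, which matches on the other strand. The same letters as in MARCO stood 44 to 37 bases before the start of FCN1, and CD163 had 3 matches. TTGCNNAA occurred in 2 of 5 windows, MNDA and CD163, against 8.15% of all windows, at letters that also match TTNNGNAA. GAGGAA, a core of sites for the myeloid factor PU.1, was in 3 of 5 windows (MNDA, CLEC5A and CD163) and in 20.4% of all. TGANTCA, the AP-1 pattern, was in 0 of 5 windows and in 5.87% of all. The patterns for C/EBP are rich in A and T, and G and C made up 37.0% of the MNDA window, 42.1% of CLEC5A, 34.3% of CD163, 53.7% of MARCO and 55.1% of FCN1, against a median of 57.9% over all windows. A match describes letters only. FCN1 and CD163 held such letters too, and neither had enough counts for a test.

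**Figure D1:**
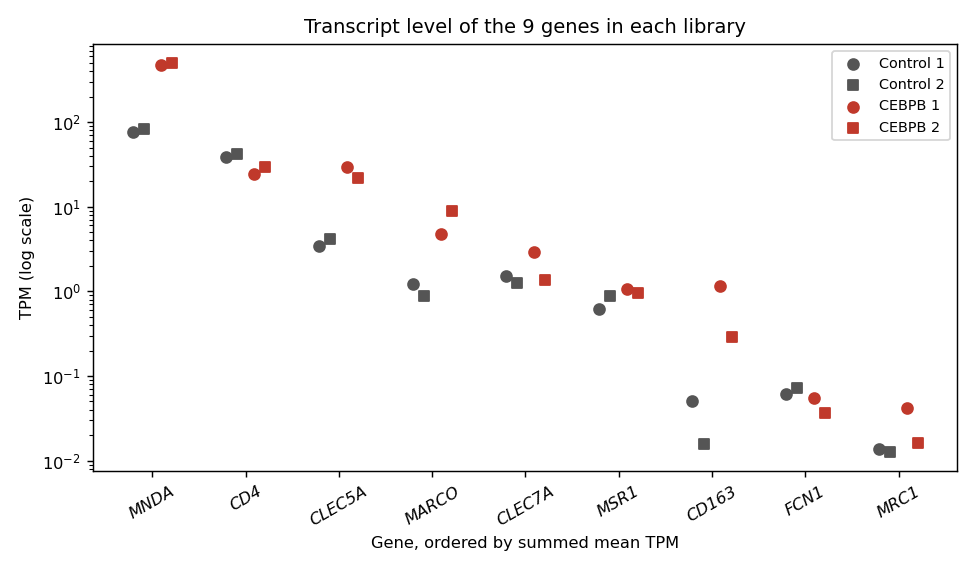
TPM (log scale) of each of the 9 genes in each library, grey for Control and red for CEBPB, circles for replicate 1 and squares for replicate 2. MNDA, CLEC5A and MARCO were higher in both CEBPB libraries and CD4 lower in both, while FCN1 and MRC1 stayed under 0.1 TPM in every library.

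Among the monocyte markers, MNDA was abundant and FCN1 nearly absent. MNDA (ENSG00000163563.8, chromosome 1, 158831317 to 158849506, plus strand, GENCODE v29 on GRCh38) encodes the myeloid nuclear differentiation antigen, a nuclear protein of the PYHIN family of interferon-inducible DNA-binding proteins. It had 77.1 and 83.4 TPM in Control libraries against 474 and 493 TPM in CEBPB libraries. Both CEBPB libraries lay far above both controls, and the replicates of each group lay close together. By any margin, 48.7% of tested identifiers had both CEBPB libraries above both controls. The fitted log2 difference was 2.41 ± 0.08 (SE; edgeR adjusted p = 0.000112), or 5.32-fold, from 1423 and 1692 reads in the controls and 8737 and 7949 in the CEBPB libraries. Reads here and below were recovered as TPM times effective length, scaled to the library total.

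FCN1 (ENSG00000085265.12, chromosome 9, 134905890 to 134917963, minus strand) encodes M-ficolin, a lectin of monocytes that can start complement activation. It measured 0.0619 and 0.0719 TPM under the Control label and 0.0555 and 0.0365 TPM under the CEBPB label, from 8, 10, 7 and 4 reads. Within the same controls the mean of MNDA was 80.3 TPM and that of FCN1 0.0669 TPM. So few reads allowed no test of FCN1.

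No relative of these genes was called higher beside MNDA. Of 10 listed PYHIN genes, ficolins and lectin pathway proteases, 2 had enough counts, 0 rose and 1 fell (median log2 fold change -1.22), beside 23.7% and 24.7% of all identifiers tested. IFI16, a DNA sensor whose gene lies on chromosome 1 near MNDA, fell from 22 ± 1.21 to 7.67 ± 1.84 TPM (mean ± SD, n = 2 per group), a log2 difference of -1.70 ± 0.19 (SE; edgeR adjusted p = 0.00168). AIM2, an inflammasome sensor in the same gene cluster, averaged 1.09 TPM in Control and 0.729 TPM in CEBPB libraries (adjusted p = 0.309, edgeR). FCN2, FCN3, MBL2 and COLEC10 were at 0 in all 4 libraries.

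The scavenger receptors were low in level, and MARCO was the one that rose. MARCO (ENSG00000019169.11, chromosome 2, 118942166 to 118994660, plus strand) encodes a class A scavenger receptor with a collagen-like stalk that binds bacteria and particles. It had 1.22 and 0.880 TPM in Control libraries against 4.76 and 8.79 TPM in CEBPB libraries. Both CEBPB libraries lay above both controls, as did 48.7% of tested identifiers. Within the CEBPB group, replicate 2 was the higher of the pair. The fitted log2 difference was 2.52 ± 0.42 (SE; edgeR adjusted p = 0.00559), or 5.75-fold. On recovered reads, 18 and 19 against 153 and 206, the fitted log2 difference was 3.28 ± 0.32 (SE; edgeR adjusted p = 0.000191), or 9.70-fold. The difference between these estimates lies in the effective length of MARCO, which was 865 and 1174 bases in the controls and 1968 and 1642 bases in the CEBPB libraries. Without CEBPB replicate 2 the log2 fold change was 1.97 (adjusted p = 0.0166, edgeR).

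MSR1 (ENSG00000038945.15, chromosome 8, 16107878 to 16567490, minus strand) encodes CD204, another class A scavenger receptor, which takes up modified lipoproteins. It measured 0.626 and 0.883 TPM under the Control label and 1.07 and 0.947 TPM under the CEBPB label. The groups did not overlap, as was the case for 48.7% of tested identifiers in the direction of higher CEBPB values. The log2 fold change was 0.27 with a 95% interval from -0.78 to 1.32 (adjusted p = 0.629, edgeR). The values rest on 3, 7, 5 and 7 reads at effective lengths of 280 to 518 bases, so changes within that interval, or larger ones, could go unseen. The interval was fitted on deposited counts of 12.5, 19.1, 23.6 and 17.2, which exceed these reads, so it may be too narrow. On recovered reads MSR1 did not pass the filter.

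CD163 (ENSG00000177575.13, chromosome 12, 7470813 to 7503893, minus strand) encodes the receptor that clears haemoglobin bound to haptoglobin. Its span overlaps that of its paralog CD163L1, and whether any reads were shared between them was not tested. It had 0.0506 and 0.0156 TPM in Control libraries against 1.15 and 0.290 TPM in CEBPB libraries. All 4 values were low, and CEBPB replicate 1 stood above the rest. The corresponding reads were 3 and 1 in the controls and 14 and 4 in the CEBPB libraries. The effective length was 3472 and 3479 bases in the controls and 745 and 965 bases in the CEBPB libraries, so the ratio of TPM exceeds that of reads. With so few reads CD163 was left out of the test; fitted without any filter it was called higher (log2 difference 4.38, edgeR adjusted p = 0.0472).

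MRC1 (ENSG00000260314.3, chromosome 10, 17809344 to 17911170, plus strand), which encodes the mannose receptor CD206 of tissue macrophages, was the lowest of the 9. It measured 0.0137 and 0.0127 TPM under the Control label and 0.0421 and 0.0160 TPM under the CEBPB label, from 1, 1, 3 and 1 reads. These counts do not tell the groups apart.

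Most other scavenger receptors were low as well, and few had enough counts for a test. Of 18 listed, 5 were tested, 4 of them rose and 1 fell, beside 23.7% and 24.7% of all identifiers tested. Their median log2 fold change was 2.52, beside 0 over all identifiers tested. OLR1, which encodes the lectin-like receptor for oxidised low-density lipoprotein, rose from 0.317 ± 0.104 to 110 ± 29.3 TPM (log2 difference 8.25 ± 0.30, SE; edgeR adjusted p = 0.000121). It went from 3 and 7 reads in the controls to 3948 and 2210 in the CEBPB libraries, well past MARCO in level. CD36, a receptor for oxidised lipids and fatty acids, rose from 2.26 to 29.5 TPM (log2 difference 3.53), and SCARB2, a lysosomal membrane protein, from 18.9 to 44.5 TPM (1.05). SCARB1, the receptor for high-density lipoprotein, fell from 78.3 to 20 TPM (-2.15, adjusted p = 0.000196, edgeR). OLR1 and CXCL16, a chemokine that also binds oxidised lipoprotein, passed the filter on low counts through their CEBPB libraries, so their rise was fixed in part by the filter, and the count and median above say nothing of the list as a whole. On recovered reads 2 of the list were called lower, SCARB1 and STAB1, a gene that did not pass the filter on the deposited counts (recovered log2 difference -3.42, edgeR adjusted p = 0.00857). The fibroblast gene DCN, in the list of epithelial and fibroblast markers, moved in the same direction, from 0.802 to 20.6 TPM, COL1A1 averaged 0.591 TPM in Control and 1.38 TPM in CEBPB libraries (adjusted p = 0.154, edgeR; called higher on recovered reads, adjusted p = 0.00101, edgeR), and COL1A2 stayed at 0.0198 TPM or less. Their part in these results was not tested.

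Genes that handle haemoglobin and haem beside CD163 were easier to measure than the receptor itself. Of 10 listed, 9 were tested, 4 rose and 0 fell (median 0.42), beside 23.7% and 24.7% of all identifiers tested. Haem oxygenase HMOX1 rose from 9.66 to 78.9 TPM (2.85), haptoglobin HP, the ligand partner of CD163, from 0.466 to 6.34 TPM (3.59, adjusted p = 0.0015, edgeR), biliverdin reductase BLVRA from 23.3 to 39.2 TPM (0.57), and ADAM17, a protease that sheds CD163 from the surface, from 35.9 to 65.8 TPM (0.69). Tested against a 1.5-fold change, 2 of this list were called higher, beside 8.66% of all identifiers tested. HP passed the filter on low counts through its CEBPB libraries, so its rise was fixed in part by the filter.

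**Figure D2:**
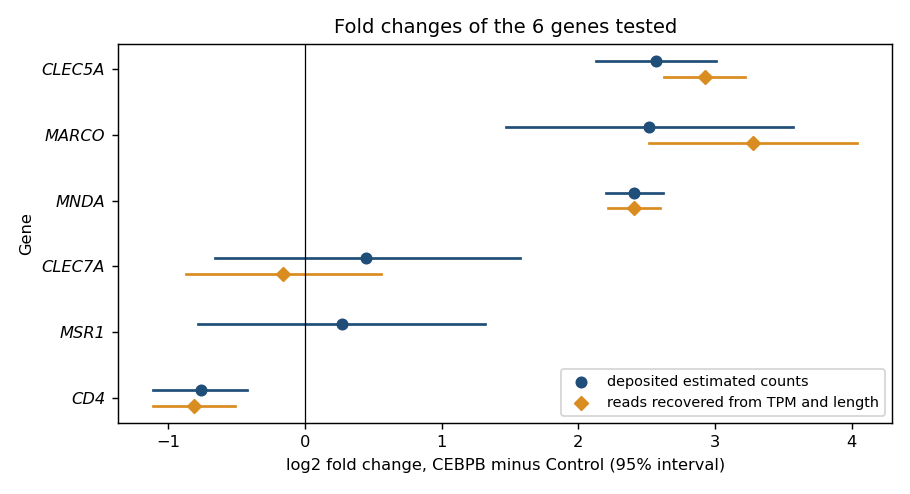
log2 fold change (CEBPB minus Control) of the 6 tested genes with its 95% interval, from the deposited estimated counts (circles) and from recovered reads (diamonds). MARCO moves from 2.52 to 3.28 and CLEC7A from 0.45 to -0.16 between the estimates, MNDA stays at 2.41, and MSR1 has no value on reads because it did not pass the filter there.

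The lectin receptors divided, CLEC5A rising and CLEC7A not. CLEC5A (ENSG00000258227.7, chromosome 7, 141927357 to 141947007, minus strand) encodes MDL-1, a myeloid receptor that signals through the adaptor TYROBP (DAP12). It had 3.39 and 4.2 TPM in Control libraries against 29.1 and 22.1 TPM in CEBPB libraries. The lower CEBPB library lay well above the higher control, and by any margin this held for 48.7% of tested identifiers. The fitted log2 difference was 2.57 ± 0.17 (SE; edgeR adjusted p = 0.000395), or 5.94-fold, from 113 and 141 reads against 1154 and 817. On recovered reads it was 2.93 ± 0.12 (SE; edgeR adjusted p = 7.95e-06).

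CLEC7A (ENSG00000172243.18, chromosome 12, 10116777 to 10130258, minus strand) encodes dectin-1, the receptor for fungal beta-glucan. It measured 1.53 and 1.24 TPM under the Control label and 2.95 and 1.35 TPM under the CEBPB label. CEBPB replicate 1 alone stood high, and replicate 2 lay between the controls. The reads were nearly level at 32.5, 32.1, 30.1 and 28.1, whereas the effective length was 624 bases in CEBPB replicate 1 and 1240 to 1457 bases in the other libraries. The log2 fold change was 0.45 with a 95% interval from -0.66 to 1.57 (adjusted p = 0.443, edgeR), and on recovered reads it was -0.16 with an interval from -0.87 to 0.56 (adjusted p = 0.669, edgeR). Without CEBPB replicate 1 it was -0.19 (adjusted p = 0.769, edgeR), so the sign of the estimate rests on that library.

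**Figure D3:**
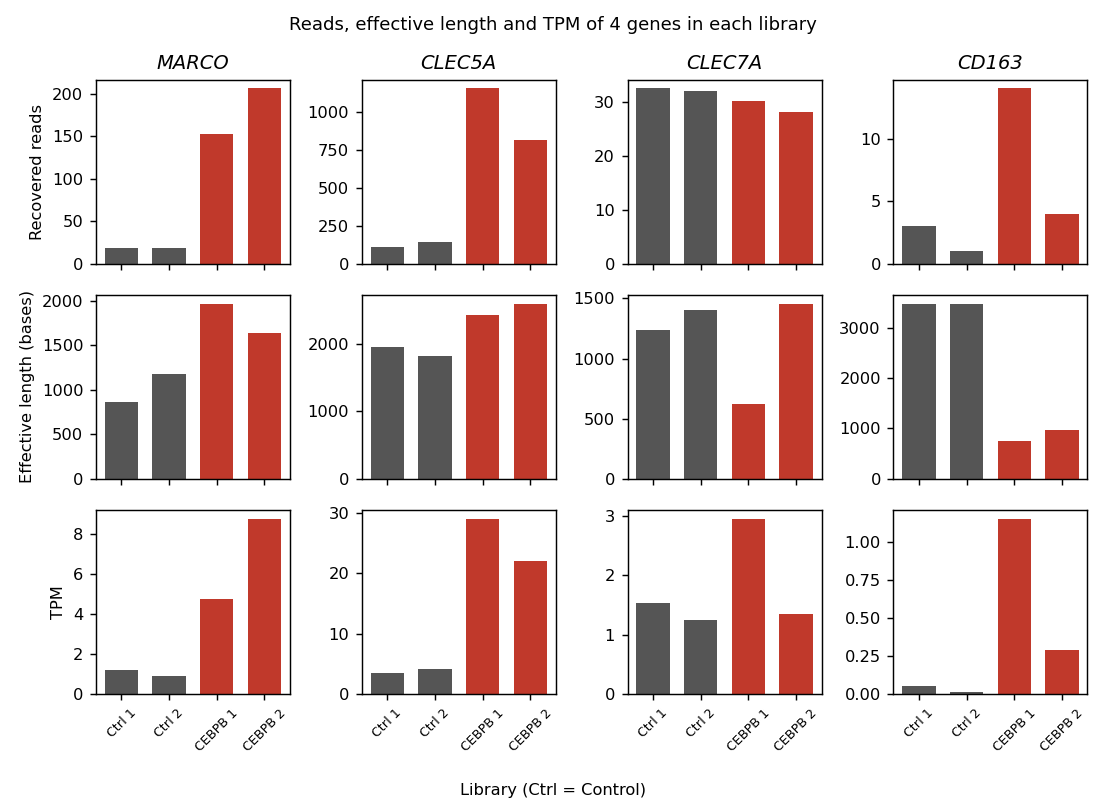
Recovered reads, effective length in bases and TPM of MARCO, CLEC5A, CLEC7A and CD163 in each library, grey for Control (Ctrl) and red for CEBPB, each axis starting at 0. The reads of CLEC7A lie between 28.1 and 32.5 in all 4 libraries while its TPM reaches 2.95 in CEBPB 1, where the effective length is 624 bases.

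The effective lengths of MARCO and CD163 differed between groups by more than 1.5-fold, chosen for mention after their values were seen. The mean effective length in the CEBPB libraries was 1.77 times that in the controls for MARCO, 1.33 times for CLEC5A, 0.788 times for CLEC7A and 0.246 times for CD163. For MNDA it was 1.04 times and for CD4 0.998 times. The median over the 13698 tested identifiers was 1.02, and 343 of them (2.50%) lay beyond 1.5-fold in either direction. GENCODE v29 lists 3 transcripts of MARCO from 556 to 1838 bases, 13 of CLEC7A from 355 to 3725 bases and 11 of CD163 from 318 to 5312 bases. The release used by the submitters is not given in the sources used here, and the effective length of FCN1, 7565 to 7718 bases, exceeds its longest v29 transcript of 4369 bases. That of CD4, 3313 to 3434 bases, exceeds its longest of 3114 bases, and that of MARCO in CEBPB replicate 1, 1968 bases, its longest of 1838 bases. The v29 transcripts therefore do not cover the lengths of these genes.

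Other C-type lectin receptors moved in both directions. Of 27 listed, 17 were tested, 3 rose and 4 fell (median 0.13, and 0.13 with CLEC1A at its lower bound). These shares do not exceed the 23.7% and 24.7% over all identifiers. CD93, a receptor with a C-type lectin domain on myeloid and endothelial cells, fell from 42.2 to 19.2 TPM (log2 fold change -1.31, adjusted p = 0.000566, edgeR). MRC2, the collagen-binding relative of MRC1, fell from 98.9 to 55.3 TPM (-1.02), and so was far more abundant than MRC1 in both groups. CLEC17A fell from 2.67 to 0.130 TPM (-4.29). CLEC17A and CD209, also called lower, passed the filter on low counts through their Control libraries, so their fall was fixed in part by the filter. CLEC4D, a partner in the recognition of mycobacterial glycolipid, rose from 1.33 to 4.08 TPM (1.44, adjusted p = 0.00638, edgeR).

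CLEC7A lies in a cluster of lectin receptor genes on chromosome 12, and 9 other genes of the lists have their start within 500 kb of its own. This window was chosen after the values were seen. The nearest listed genes on either side of CLEC7A rose while it did not pass. OLR1, described above, starts 41.9 kb from CLEC7A. CLEC1A, on the other side at 18.6 kb, had 0 reads in both controls and 27 and 12 reads in the CEBPB libraries, at least 13.4-fold higher against a floor of 3 reads over the control group (adjusted p = 0.00728, edgeR). CLEC1A passed the filter on low counts through its CEBPB libraries alone, so the direction of its call was fixed by the filter. It gave no value without CEBPB replicate 1 or with a minimum of 1 CPM in 2 libraries. CLEC2B, 260.1 kb away, rose from 63.4 to 84.1 TPM (0.23, adjusted p = 0.0341, edgeR), a call lost without either control, without CEBPB replicate 2, with the replicate block, by DESeq2 and against a 1.5-fold change. CLEC12A (0.21), CLEC1B (0.13), CLEC12B (-0.09), CLEC9A (-0.21) and CLEC2D (0.04) did not pass, and KLRD1 had too few counts.

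**Figure D4:**
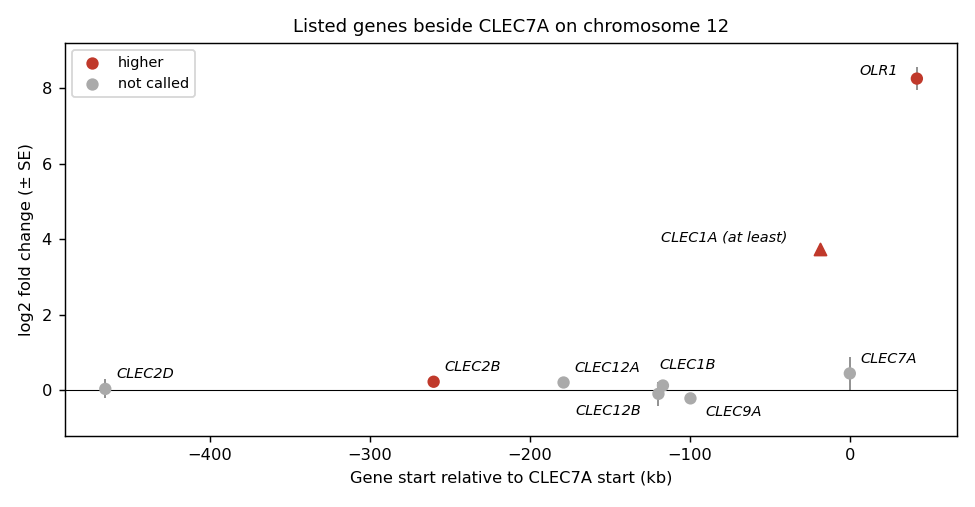
log2 fold change (CEBPB minus Control, bars ± SE) of listed genes against the distance of their start from that of CLEC7A in kb, red where called higher and grey where not called. OLR1 stands at 8.25, CLEC1A is drawn as a triangle at the log2 of its lower bound (3.75), and CLEC7A (0.45) and the genes farther left than CLEC1A (-0.21 to 0.23) lie nearer to 0.

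Downstream partners of the lectin receptors were well expressed, and they moved in both directions. Of 18 listed adaptors and signalling genes all 18 were tested, 7 rose and 8 fell (median 0.02). Over all identifiers tested 23.7% rose and 24.7% fell, so calls in both directions were common. TYROBP, the adaptor of CLEC5A, fell from 215 ± 3.89 to 128 ± 19.2 TPM (log2 difference -0.92 ± 0.13, SE; edgeR adjusted p = 0.00354) as CLEC5A itself rose. HCST, a related adaptor, fell from 35 to 22.9 TPM (-0.79). The kinase SYK rose from 52.9 to 90.8 TPM (0.60), and the SRC-family kinase LYN from 144 to 238 TPM (0.55). CARD9, which links dectin-1 and SYK to NF-κB, fell from 11.7 ± 0.598 to 1.20 ± 0.0534 TPM (log2 difference -3.43 ± 0.17, SE; edgeR adjusted p = 0.000197). PRKCD, the kinase that acts on CARD9, fell from 123 to 52.2 TPM (-1.41), and the phosphatase PTPN6 (SHP-1) from 170 to 57.0 TPM (-1.75). TYROBP, HCST and SYK were named for their link to the members, after their values were seen. The rises in this list were small. Against a 1.5-fold change 0 of the 18 were called higher and 6 lower, beside 8.66% and 8.67% of all identifiers tested. Without CEBPB replicate 2 fewer of the list were called higher.

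CD4 was the only one of the 9 called lower. CD4 (ENSG00000010610.10, chromosome 12, 6786858 to 6820808, plus strand) encodes a co-receptor for MHC class II that also binds the cytokine IL-16. It had 38.7 and 42.3 TPM in Control libraries against 24.3 and 29.8 TPM in CEBPB libraries. Both CEBPB libraries lay below both controls, as did 28.6% of tested identifiers. The fitted log2 difference was -0.76 ± 0.14 (SE; edgeR adjusted p = 0.00768), and 2271 and 2581 reads in the controls stood against 1326 and 1444. Tested against a 1.5-fold change it did not pass (adjusted p = 0.178, edgeR). The effective length of CD4 lay between 3313 and 3434 bases in all libraries. In bulk RNA, fewer cells with the transcript and less of it per cell cannot be told apart.

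T cell transcripts did not accompany CD4 in level. CD3E and CD2 were at 0 in all 4 libraries, CD3D was at 0 in 3 of them, and all 9 T cell markers were under 1 TPM in every library (their sum was 0.840 and 1.14 TPM under Control, 0.414 and 0.330 TPM under CEBPB). TRAC, the 1 tested, was called lower, and that call was lost without either control or without CEBPB replicate 1. TRAC passed the filter on low counts through its Control libraries, so its direction was fixed in part by the filter. LCK, the kinase that CD4 carries in T cells, was at 0 in all 4 libraries, and so was HLA-DRA, a chain of its MHC class II ligand. Of 15 listed partners of CD4, 5 were tested, 0 rose and 4 fell (median -1.15), beside 23.7% called higher and 24.7% lower over all identifiers tested. CXCR4, the receptor for the chemokine CXCL12, fell from 68.0 to 22.4 TPM (-1.78). CD74, the class II invariant chain, fell from 170 to 86.6 TPM (-1.15), and IL16, the gene of the soluble ligand, from 5.07 to 1.83 TPM (-1.64, adjusted p = 0.00429, edgeR).

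**Figure D5:**
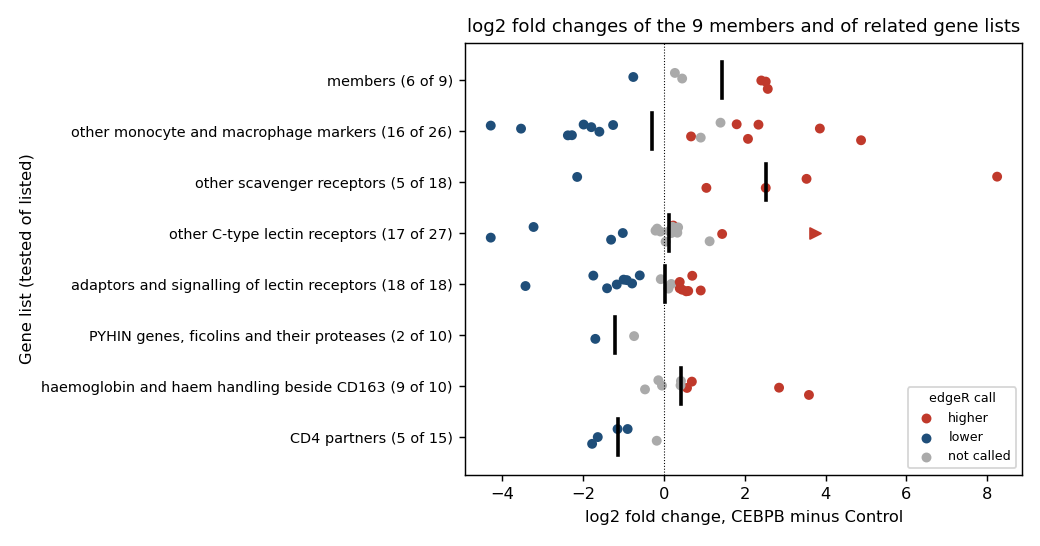
log2 fold change (CEBPB minus Control) of each tested gene in 8 lists, one point per gene, coloured by the edgeR call, with the list's median as a bar and CLEC1A as a triangle at its lower bound. The members' median is 1.43, that of the partners of CD4 is -1.15, and the adaptors centre on 0.02.

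The order of levels among the 9 genes was nearly the same in both groups. By mean TPM in the controls it ran from MNDA through CD4, CLEC5A, CLEC7A, MARCO, MSR1, FCN1 and CD163 to MRC1. In the CEBPB libraries MARCO stood above CLEC7A, and CD163 above FCN1. In the controls MARCO and MSR1 overlapped (0.880 and 0.883 TPM at their nearest). In the CEBPB libraries CLEC5A and CD4 overlapped, at 22.1 to 29.1 and 24.3 to 29.8 TPM, MSR1 lay within the range of CD163, and FCN1 overlapped with MRC1. The summed level of the 9 was 123 and 133 TPM under Control against 537 and 556 TPM under CEBPB, most of it MNDA.

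Other monocyte and macrophage markers moved in both directions, as the members did. Of 26 listed, 16 were tested, 6 rose and 8 fell (median -0.29), beside 23.7% and 24.7% of all identifiers tested. S100A8 rose by 4.88, S100A9 by 3.86 and lysozyme LYZ by 2.34 on the log2 scale, and the chemokine receptor CCR2 fell by 3.54. CD14, the classical monocyte antigen and co-receptor for lipopolysaccharide, named after its value was seen, rose from 1.03 to 4.99 TPM (2.08, adjusted p = 0.00158, edgeR). The others called higher were ITGAM (1.80) and MS4A7 (0.67). The others called lower were CX3CR1 (-4.29), FCGR1A (-2.38, a gene with near-identical copies, so uncertain), MS4A6A (-2.28), CSF1R, the receptor for the macrophage growth factor CSF1 (-1.99), VCAN (-1.80), ITGAX (-1.60) and CD68, a lysosomal protein of macrophages (-1.26). CX3CR1 passed the filter on low counts through its Control libraries, so its fall was fixed in part by the filter. C1QA, C1QB, C1QC and LYVE1, genes of tissue macrophages, were at 0 in all 4 libraries, beside the low MRC1 and CD163. In the controls, then, the monocyte transcripts MNDA and LYZ (1360.2 TPM) were plentiful while CD14 and FCN1 were low. Of 5 B cell markers 2 were tested, 0 rose and 1 fell. Of 5 NK cell markers 4 were tested, 1 rose and 3 fell (fewer without Control replicate 2). Of 9 erythroid and platelet markers 1 was tested, GP9, and it fell, a call lost when any 1 of the 4 libraries was left out. GP9 and the NK gene PRF1 passed the filter on low counts through Control libraries, and the NK gene GNLY through CEBPB libraries. The filter fixed their direction in part. Of 8 epithelial and fibroblast markers 3 were tested, 1, DCN, rose and 0 fell, and on recovered reads 2 were called higher, DCN and COL1A1. Beside these counts, 23.7% of all identifiers tested were called higher and 24.7% lower, and on recovered reads 30.5% and 30.7%. The summed levels were 2.52 to 8.09 TPM for B cells, 13.9 to 30 TPM for NK cells, 0.307 to 1.12 TPM for erythroid cells and platelets and 4.25 to 26.2 TPM for epithelium and fibroblasts, and their part in the results was not tested.

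By likeness of profile over the 4 libraries (root mean square difference of log2(TPM + 1), each centred on its mean), the nearest genes to MNDA were CLVS1 (0.05) and MEGF9 (0.059), to CLEC5A FBN1 (0.037) and CHI3L1 (0.066), and to CD4 RASA4DP (0.0065, a pseudogene whose reads may belong to its copies) and MMACHC (0.031). Within 0.1 there were 13 genes for MNDA, 15 for CLEC5A and 214 for CD4. With 4 libraries in 2 groups, such likeness mostly restates a difference between groups of the same size on that scale. The added 1 shrinks the differences of genes of low TPM, so folds need not match. CLVS1 had 0 TPM in both controls and 4.55 and 4.93 TPM in the CEBPB libraries. CHI3L1 had 0.427 and 0.76 TPM against 10.1 and 6.95 TPM, and RASA4DP 0.579 and 0.708 TPM against 0 and 0.212 TPM.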

How the data were processed

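RNA sequencing libraries of OCI-AML3 were poly(A) selected and stranded, per the labels' protocols. Reads were handled with Trimmomatic 0.39 and kallisto 0.46.2 on GRCh38, per the submitters' processing notes; the annotation release, strand setting and step from transcripts to genes are not given in the sources used here. The authors' deposited files hold TPM, estimated counts from that pseudoalignment and effective lengths in bases. Each deposited estimated count equals TPM times 1 constant per library and so carries no transcript length. Identifiers were matched to symbols by a name table (35690 of 41084). No member shares its values with another identifier.

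Counts were rounded, filtered with filterByExpr (13698 left), TMM-scaled (0.938 to 1.09) and then fitted by edgeR 4.0.16 (R 4.3.3), all 4 libraries in 1 fit. SE is the log2 fold change over the root of F. The product of TPM and effective length, set to each library's total, gave back reads; 58.7% to 60.8% of values from 0.2 to 500 lay within 0.01 of a whole number. Alternatives included limma 3.58.1 and DESeq2 1.42.0. The fit was tested on simulated data. Figures used matplotlib 3.10.9. Members and lists were chosen with earlier results of these data known. All members are named, and from each other list up to 4 called genes of smallest adjusted p, with 1 of each direction (1 such gene is not reported here); counts of these lists under the alternatives were added after the data were seen.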

Additional observations from a re-analysis of the deposited data

How the results depend on the processing

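MNDA, MARCO and CLEC5A kept their direction and their call in all 14 alternatives, with log2 fold changes of 2.35 to 2.59, 1.88 to 3.28 and 2.41 to 2.93. CD4 kept its direction in 14 and its call in 13 (-0.95 to -0.57), losing it against a 1.5-fold change (adjusted p = 0.178, edgeR), where 0 members were called lower (the other alternatives called 1) and 1186 identifiers were called higher and 1188 lower (in the data as reported 3251 and 3390). CLEC7A reversed to -0.16 with recovered reads and to -0.19 without CEBPB replicate 1, and reached 0.89 without CEBPB replicate 2, all short of the threshold, as were its other values. MSR1 kept its sign in 12 alternatives (0.02 to 0.56) and gave no value with recovered reads or a minimum of 1 CPM in 2 libraries, whose filters it did not pass. CD163 was called higher, making 4 members, without a filter (4.38, adjusted p = 0.0472, edgeR). It was also called without CEBPB replicate 2 (log2 difference 5.05), but not without Control replicate 1 or 2 (6.81 and 3.48). In these fits with a library left out it passed the filter through CEBPB replicate 1 alone, so its direction was fixed by the filter. CD163 rests on 4 reads in the controls and 18 in the CEBPB libraries. Scaling by library totals moved the median of all identifiers to 0.18 and the share of calls that were higher from 49.0% to 65.2%, and limma on log2(TPM + 1) or log2(TPM + 0.1) gave 64.8% and 64.9%. These settings leave out the TMM factors, which were 0.938 and 0.941 for Control and 1.09 and 1.03 for CEBPB libraries. The TPM values quoted above carry no such factor either. Why the factors differ between groups was not tested. Libraries left out in turn gave 2289 to 2820 higher and 2398 to 3063 lower identifiers; the lone library of a group was then assumed to vary like the other group. Same-numbered libraries did not deviate together (Pearson r across identifiers -0.0131), and the labels do not tie them, so the replicate block, with 3174 higher and 3308 lower, is a check only; it changed no call of a member. Depth limits FCN1, MRC1, CD163 and MSR1, which rest on 1 to 14 reads per library.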
